A study of Rattus norvegicus with 6 samples.

Results

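A set of 5 genes of neurite growth and of the synaptic vesicle, Map2, Mapt, Gap43, Snap25 and Syt1, was followed through cultured rat astrocytes, neurons and oligodendrocyte precursor cells (OPCs). They were chosen by their Ensembl rat identifiers and not by a threshold on their levels. These are ENSRNOG00000011841 (Map2), ENSRNOG00000005133 (Mapt), ENSRNOG00000001528 (Gap43), ENSRNOG00000006037 (Snap25) and ENSRNOG00000006426 (Syt1). All 5 were among the 26405 genes of the deposited table, and all 5 were among the 18206 genes with enough counts to be tested.

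A neuron builds its axon and dendrites on bundles of microtubules and later fills the axon's terminals with vesicles that release transmitter. Map2 and Mapt (tau) bind and stabilise microtubules, Map2 mainly in dendrites and the cell body and Mapt mainly in axons. Gap43 is a membrane-bound protein of the growth cone, the moving tip of a growing axon. Snap25 is a SNARE protein of the plasma membrane that helps to pull a vesicle into fusion, and Syt1 (synaptotagmin 1) is the calcium sensor on the vesicle that triggers it.

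Astrocytes support neurons in the brain, and OPCs divide and mature into the oligodendrocytes that wrap axons in myelin. All 3 cell types were bought as commercial products, and RNA of each was sequenced in 2 libraries. Astrocytes and OPCs were passaged 1 time, after 8 days in culture, and kept for 6 days more, whereas neurons were not passaged and were kept for 7 days. Strain, age and brain region of the source animals are not stated in the sources used here. Cell type therefore cannot be told apart from product, nor, for neurons, from passage and days in culture.

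Total counts lay between 22265917 (OPC replicate 1) and 102861667 (astrocyte replicate 1). Levels are given as CPM, the count scaled to library size with TMM factors, on which 3 counts correspond to 0.0328 to 0.115 CPM. Whether replicates were separate cultures is not said in the labels, and the p-values therefore reflect the spread between libraries, which may be technical. In bulk RNA, fewer cells of a type and less RNA per cell cannot be told apart. The labelled cell types were not checked against marker lists, because no table at hand paired the identifiers of other genes with names.

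In neurons the 5 genes stood between 51.45 CPM (Syt1) and 607 CPM (Gap43), both in replicate 2. In astrocytes 4 of the 5 stood below 1 CPM in both libraries. The OPC means ran from 100.3% (Gap43) to 1.73% (Snap25) of the neuron means. For Gap43 the OPC libraries, at 429 and 726 CPM, lay on either side of both neuron libraries. Together the 5 genes took 0.236% and 0.182% of all counts in the neuron libraries. The share was 0.0874% and 0.0926% in the OPC libraries, and 0.00164% and 0.00132% in the astrocyte libraries. The differences between cell types exceeded those between replicates in each of these sums.

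**Figure D1:**
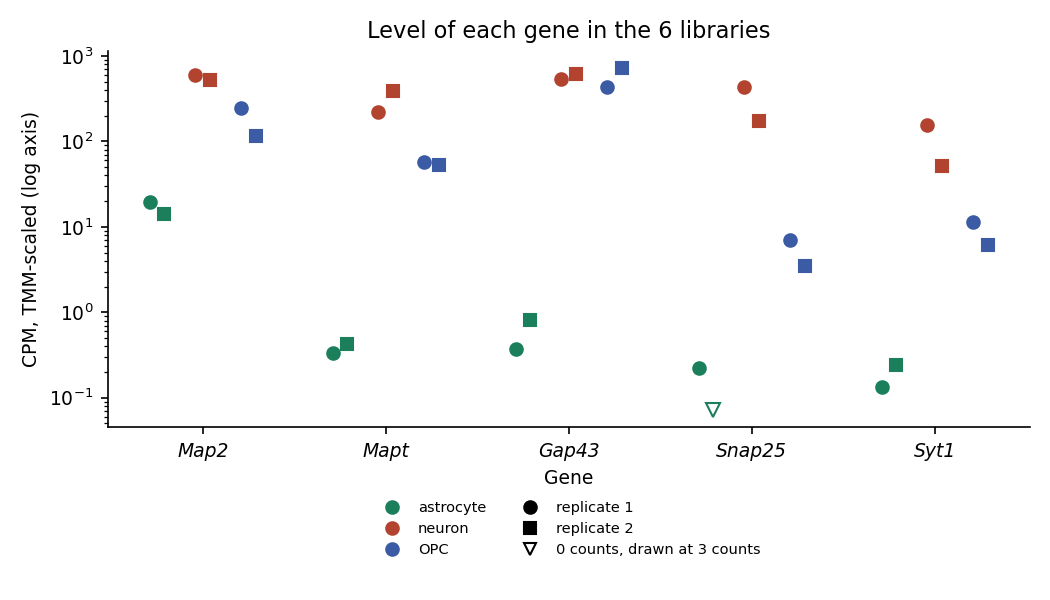
CPM (log axis) of each gene in each library, coloured by cell type, with a circle for replicate 1 and a square for replicate 2. An open triangle marks 0 counts and is drawn at the level of 3 counts. Gap43 is the gene whose neuron and OPC libraries overlap, and Map2 is the gene whose astrocyte libraries stand above 10 CPM.

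All 5 genes were higher in neurons than in astrocytes by edgeR's quasi-likelihood test, with adjusted p between 0.000305 (Mapt) and 0.0011 (Snap25). Of all genes tested, 14.5% were called higher in neurons in that comparison. All 5 were also higher in OPCs than in astrocytes (edgeR adjusted p between 0.000442 for Mapt and 0.00979 for Snap25), where 10.6% of all genes were called higher in OPCs. Between neurons and OPCs, 3 of the 5 were called higher in neurons, Mapt, Snap25 and Syt1, against 7.73% of all genes. All 3 lost the call when either OPC library was left out, with edgeR adjusted p between 0.0823 and 0.123. The genes called over the whole table, in both directions, then numbered 225 without OPC replicate 1 and 116 without OPC replicate 2, against 2260 with all libraries. The median log2 fold change of the 5 was 9.66 for neurons against astrocytes, 5.59 for OPCs against astrocytes and 2.46 for neurons against OPCs. Over all genes tested the medians were -0.06, -0.04 and 0.05. Both neuron libraries lay above both astrocyte libraries in 5 of the 5 genes, as they did in 31.9% of all genes tested. Both OPC libraries lay above both astrocyte libraries in 5 of the 5 (31.1% of all genes), and both neuron libraries above both OPC libraries in 4 of the 5, all but Gap43 (29.7%). The comparisons share libraries and are not independent of one another.

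**Figure D2:**
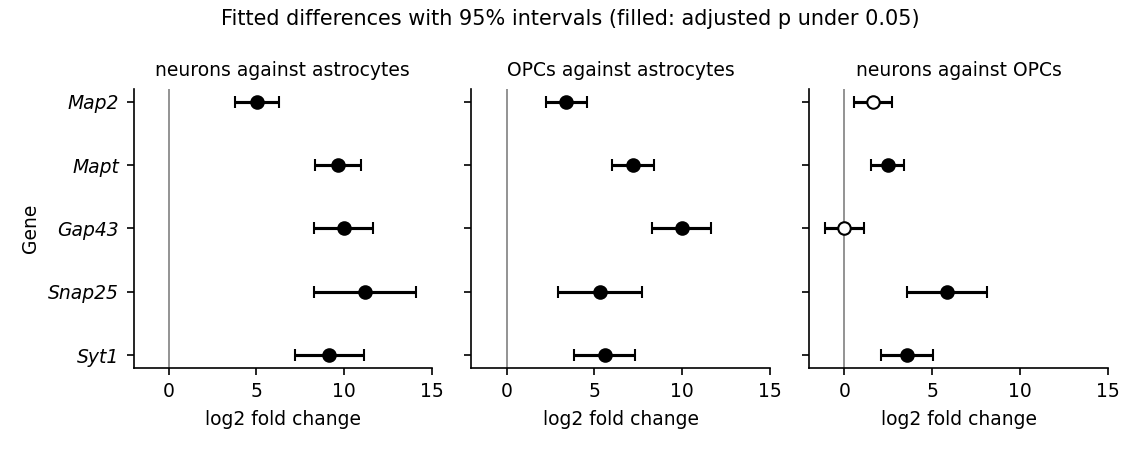
Fitted log2 fold change of each gene in the 3 comparisons, with 95% intervals that are not adjusted for the number of genes; filled points have an adjusted p under 0.05. Against astrocytes every point is filled, and between neurons and OPCs the points of Map2 and Gap43 are open.

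Map2 was the gene of the set with the most RNA in astrocytes relative to neurons, at 3.02% of the neuron mean, where the other 4 stood between 0.0362% (Snap25) and 0.181% (Syt1). It had 1604 and 600 counts in astrocyte replicates 1 and 2, which are 19.7 and 14.3 CPM. It stood at 597 and 526 CPM in neurons and at 244 and 114 CPM in OPCs. The 3 cell types did not overlap, with neurons highest, OPCs next and astrocytes lowest, and the neuron replicates lay within 1.13-fold of each other while the OPC replicates differed 2.13-fold. The neuron mean of 561 ± 50.3 CPM (SD, n = 2) exceeded the astrocyte mean of 17.0 ± 3.79 CPM by 5.05 ± 0.53 on the log2 scale (SE; by edgeR, adjusted p = 0.000928), or 33.0-fold. For OPCs, at 179 ± 91.5 CPM, the log2 fold change against astrocytes was 3.40 ± 0.49 (edgeR adjusted p = 0.00338), and 2.75 without OPC replicate 1. Neurons stood 1.65 ± 0.46 above OPCs on the log2 scale, a difference that missed the threshold (edgeR adjusted p = 0.0604). It passed with the replicate number as a block (1.74, adjusted p = 0.0329), with no low-count filter (adjusted p = 0.0272) and by DESeq2 (adjusted p = 0.0051). Over all alternatives the adjusted p ran up to 0.324. Without OPC replicate 1 the value was 2.29.

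Mapt, the other microtubule-binding gene, was nearly absent from the astrocyte libraries. It had 27 counts in astrocyte replicate 1 and 18 in replicate 2, at 0.331 and 0.429 CPM. It reached 220 and 391 CPM in neurons, and 57.2 and 53.6 CPM in OPCs, whose replicates lay within 1.07-fold. The order was neurons, OPCs, astrocytes, without overlap. In neurons, replicate 2 was the higher one by 1.78-fold, the reverse of the order seen for Snap25 and Syt1.

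The neuron mean of Mapt was 305 ± 121 CPM (SD, n = 2) and the astrocyte mean 0.380 ± 0.0692 CPM, 9.66 ± 0.55 apart on the log2 scale (SE; by edgeR, adjusted p = 0.000305). OPCs, at 55.4 ± 2.54 CPM, differed from astrocytes by 7.20 ± 0.50 (edgeR adjusted p = 0.000442). Neurons exceeded OPCs by 2.46 ± 0.39, a 5.50-fold difference (95% interval 2.90 to 10.4; edgeR adjusted p = 0.0132). The adjusted p of the neuron and OPC difference rose to 0.0944 when OPC replicate 1 was left out and to 0.113 when OPC replicate 2 was, with log2 fold changes of 2.51 and 2.40. Thus the difference kept its size in both cases, but not its call.

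Gap43 was the gene of the set whose OPC and neuron libraries overlapped, whereas the other 4 had both neuron libraries above both OPC libraries. Its counts were 49797 and 35112 in the neuron libraries and 11162 and 33540 in the OPC libraries. Scaled, these are 545 and 607 CPM in neurons, and 429 and 726 CPM in OPCs. One OPC library thus lay below both neuron libraries and the other above both. The means were 576 ± 44.5 CPM in neurons and 578 ± 210 CPM in OPCs (SD, n = 2 each). The fitted log2 fold change between them was 0.00 (95% interval -1.12 to 1.11; edgeR adjusted p = 0.996), so the interval allows neurons to stand from 0.459-fold to 2.16-fold of OPCs. The missing call does not show that the levels were equal.

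In astrocytes Gap43 had 30 and 34 counts, or 0.368 and 0.810 CPM (mean 0.589 ± 0.313, SD, n = 2). The astrocyte libraries lay below the lowest of the other 4 libraries without overlap. The log2 fold change against astrocytes was 9.96 ± 0.70 (SE) for neurons and 9.97 ± 0.70 for OPCs, with edgeR adjusted p of 0.000341 and 0.000456. Without astrocyte replicate 2 both values were larger, 10.63 and 10.64. By size of the OPC excess over astrocytes, Gap43 ranked 30 among the 18206 genes tested.

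Snap25 showed the widest range of the 5 genes. It had 39610 and 10151 counts in the neuron libraries, 182 and 162 in the OPC libraries, 18 in astrocyte replicate 1 and 0 in astrocyte replicate 2. The levels were 433 and 176 CPM in neurons, 7.00 and 3.51 CPM in OPCs, and 0.221 CPM in astrocyte replicate 1. In astrocyte replicate 2 the limit of 3 counts is 0.0714 CPM, and the upper bound of the exact 95% Poisson interval of a count of 0 is 0.0879 CPM. The cell types did not overlap, in the order neurons, OPCs, astrocytes.

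On the log2 scale neurons exceeded astrocytes in Snap25 by 11.17 ± 1.23 (SE; by edgeR, adjusted p = 0.0011), and this excess ranked 13 among the genes tested. Leaving out astrocyte replicate 2 gave 10.43, leaving out neuron replicate 1 gave 10.34, and limma-voom gave 12.15. Without astrocyte replicate 1 no astrocyte count was left, and the neuron mean of 304 CPM was 4260 times the level of 3 counts in the remaining library. OPCs exceeded astrocytes by 5.31 ± 1.02 (edgeR adjusted p = 0.00979). By limma-voom this excess was 6.32, and leaving out astrocyte replicate 2 made it 4.59. Against the same level of 3 counts, without astrocyte replicate 1, the OPC mean of 5.26 CPM was 73.5-fold higher. Neither ratio to that level is a lower bound. Neurons exceeded OPCs by 5.86 ± 0.97, or 58.2-fold (95% interval 11.96 to 283; edgeR adjusted p = 0.0142), and by 5.07 without neuron replicate 1. The last comparison lost its call without OPC replicate 1 (adjusted p = 0.0923, log2 fold change 6.44), and also without OPC replicate 2 (adjusted p = 0.123, log2 fold change 5.42).

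Syt1, which acts with Snap25 at the fusing vesicle, stood at 154 and 51.4 CPM in neurons. It was at 11.3 and 6.17 CPM in OPCs and at 0.135 and 0.238 CPM in astrocytes, the last from 11 and 10 counts. The exact 95% Poisson intervals of the astrocyte levels, 0.0673 to 0.241 and 0.114 to 0.438 CPM, overlapped. Those of Mapt also overlapped between the astrocyte replicates. Those of Gap43 (0.248 to 0.525 and 0.561 to 1.13 CPM), Snap25 and Map2 did not. These intervals cover counting error only. The cell types again ranked neurons, OPCs, astrocytes without overlap.

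The neuron mean of Syt1 was 103 ± 72.6 CPM, the OPC mean 8.72 ± 3.61 CPM and the astrocyte mean 0.186 ± 0.0731 CPM (SD, n = 2 each). Neurons exceeded astrocytes by 9.15 ± 0.83 on the log2 scale (SE; by edgeR, adjusted p = 0.000622), by 8.16 without neuron replicate 1 and by 9.75 without neuron replicate 2. The OPC excess over astrocytes was 5.59 ± 0.74 (edgeR adjusted p = 0.00241). Neurons exceeded OPCs by 3.56 ± 0.63, or 11.8-fold (95% interval 4.23 to 33.0; edgeR adjusted p = 0.0171). It was 2.56 when neuron replicate 1 was left out and 4.15 when replicate 2 was. Leaving out OPC replicate 1 gave an adjusted p of 0.0823 (log2 fold change 4.06), and leaving out OPC replicate 2 gave 0.119 (3.17), so the call was lost in both cases.

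Relative to neurons, the OPC levels of the 5 genes spanned a wide range. Set against the neuron mean, the OPC mean was 100.3% for Gap43, 31.9% for Map2, 18.2% for Mapt, 8.49% for Syt1 and 1.73% for Snap25. In OPC replicates 1 and 2 separately, Gap43 stood at 74.6% and 126% of the neuron mean, and Map2 at 43.5% and 20.4%. Mapt was at 18.8% and 17.6%, Syt1 at 10.97% and 6.00%, and Snap25 at 2.30% and 1.15%. Both OPC libraries gave the same order of the 5 genes in this measure. When single neuron libraries were the reference, the order of Map2 and Mapt, and that of Mapt and Syt1, depended on which was used. Against the neuron mean, the vesicle fusion genes Syt1 and Snap25 were at the lower end and the growth cone gene Gap43 at the upper end.

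Ratios of counts within a library do not depend on any scaling. Such a ratio also depends on the length of the RNAs, so only its change between libraries is read. Length cancels in that change only where a gene's RNAs have the same length in the cell types compared, which was not tested. For Snap25 and Syt1 the ratio of counts was 2.81 and 3.41 in the neuron libraries, and 0.621 and 0.568 in the OPC libraries. Thus the ratio varied 1.21-fold between neuron replicates and 1.09-fold between OPC replicates, and 5.21-fold between the cell types. In astrocyte replicate 1 it was 1.64, from 18 and 11 counts.

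For Gap43 over Snap25 the ratio was 1.26 and 3.46 in neurons, and 61.3 and 207 in OPCs, a 54.0-fold difference between the cell type means on the log scale. For Mapt over Gap43 it was 0.403 and 0.643 in neurons, and 0.133 and 0.0739 in OPCs. The ratio of the microtubule genes, Map2 over Mapt, was 2.72 and 1.35 in neurons and 4.26 and 2.13 in OPCs, and these ranges overlapped. In astrocytes the same ratio was 59.4 and 33.3. Of the 10 pairs of genes, 8 had ratios that did not overlap between neurons and OPCs, and the exceptions were Map2 with Mapt and Mapt with Syt1. Over all pairs of the 17518 tested genes with a count in all 4 libraries, 59.5% did not overlap either, and the 10 pairs come from only 5 genes. With 2 libraries against 2 an exact permutation test cannot give a two-sided p below 0.333, and no test of the ratios was run.

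**Figure D3:**
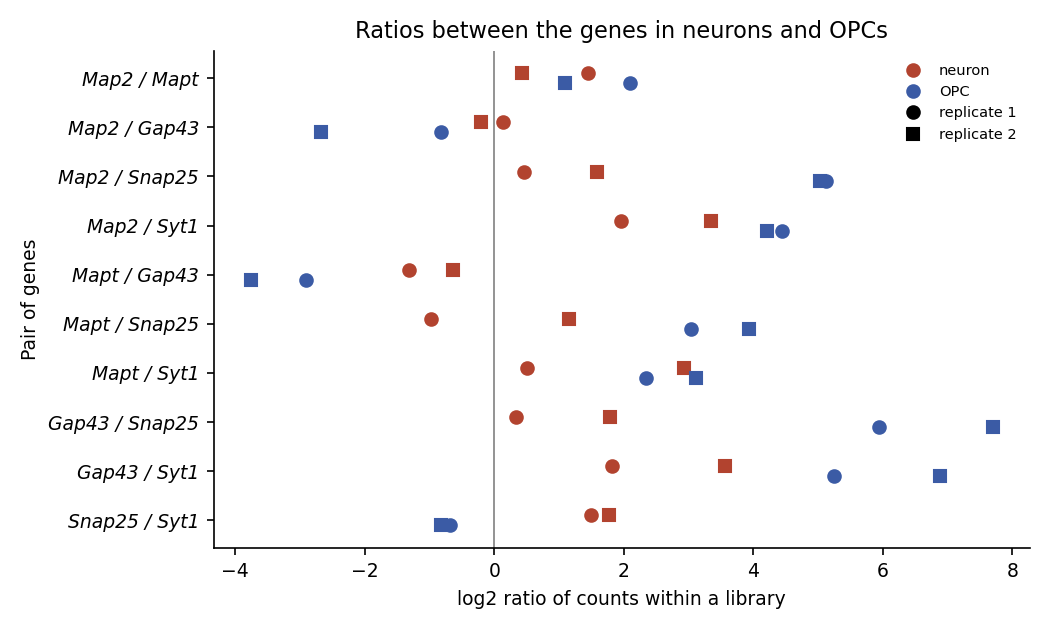
Log2 ratio of the counts of each pair of the 5 genes within each neuron and OPC library (circle replicate 1, square replicate 2). The ratios of Snap25 to Syt1 form tight pairs that lie apart between the cell types, whereas those of Map2 to Mapt overlap.

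The 5 genes did not differ alike between the neuron replicates. Both vesicle fusion genes were higher in neuron replicate 1, Snap25 by 2.47-fold and Syt1 by 2.99-fold. Mapt was higher in replicate 2 by 1.78-fold, and Map2 and Gap43 differed by 1.13-fold and 1.12-fold. As a result the ratio of Mapt to Syt1 differed 5.33-fold between the neuron replicates, whereas that of Snap25 to Syt1 differed 1.21-fold. Differences of this size were not rare between these libraries. Of all genes tested, 13.7% had a larger difference between neuron replicates, in either direction, than Syt1, and 18.7% a larger one than Snap25.

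Between OPC replicates, Map2, Snap25 and Syt1 were higher in replicate 1, by 2.13-fold, 1.99-fold and 1.82-fold. Gap43 was higher in replicate 2 by 1.69-fold, and Mapt differed by 1.07-fold. Larger differences between OPC replicates were found in 12.1% of genes for Map2 and 14.9% for Snap25. In astrocytes the contrast of 18 and 0 counts of Snap25 was exceeded by 0.56% of genes, on log2 CPM with a prior count of 2. The causes of these differences between replicates were not tested.

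**Figure D4:**
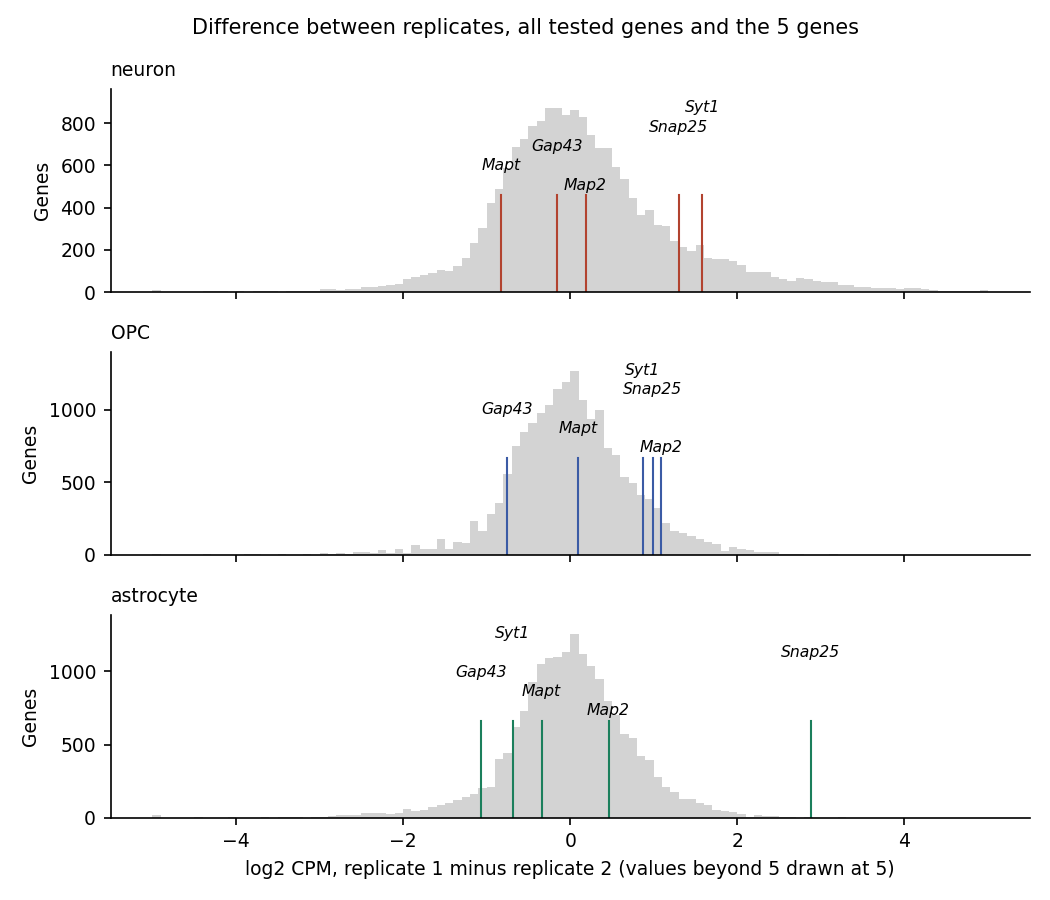
Histograms of the log2 CPM of replicate 1 minus that of replicate 2 over the 18206 genes tested, for each cell type, with lines at the 5 genes. In neurons Snap25 and Syt1 lie to the right and Mapt to the left of 0; in OPCs the 3 neighbouring lines on the right are Syt1, Snap25 and Map2 from left to right; in astrocytes Snap25 stands far to the right.

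The likeness of patterns was measured as the root mean square difference of log2 CPM over the 6 libraries, after each gene was centred on its own mean. Among 11076 other genes with a mean of at least 10 CPM, the nearest to the average pattern of the 5 was ENSRNOG00000046975, at 0.28. It stood at 0.245 and 0.190 CPM in astrocytes, 199 and 114 CPM in neurons and 22.1 and 26.6 CPM in OPCs. Next came ENSRNOG00000019914 at 0.34, with 0.184 and 0.167 CPM in astrocytes, 67.7 and 89.9 CPM in neurons and 14.0 and 15.7 CPM in OPCs. Mapt and Syt1 lay 0.53 and 0.61 from the average pattern, with 6 and 17 other genes nearer than they were. Map2, Gap43 and Snap25 lay 1.67, 1.63 and 1.58 from it, with 187, 179 and 165 genes nearer. Each of the 5 is part of that average and is drawn towards it, so these counts of nearer genes favour the 5. The closest pair within the set was Mapt and Syt1, at 1.04, and the most distant was Map2 and Gap43, at 2.88. Ranked by nearness among 11080 genes, the other members stood from rank 11 (Syt1, as seen from Snap25) to rank 9481 (Gap43, as seen from Map2). A rank depends on the gene it is seen from: at the same distance, Map2 stood at rank 279 as seen from Gap43. Seen from Syt1, Snap25 ranked 185, behind Mapt at 50 and Map2 at 174.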

How the data were processed

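The authors deposited a table of unnormalized whole-number counts by gene for 6 libraries of total RNA, which were read on an Illumina HiSeq instrument, per the labels' protocols. The sources used here name no aligner, counting tool or genome build, nor whether strand was used, so reads of a gene and of one overlapping it in antisense cannot be told apart. Columns were matched by the labels' descriptions. Names of the 5 genes came with the rule that chose them. The reference table paired 0 of the other identifiers with symbols, so gene lists and cell type markers drawn up by symbol were not analysed here. The genes and lists were chosen with earlier results of these data known.

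Genes were kept by filterByExpr (minimum count 10, minimum total 15). A quasi-likelihood model in edgeR 4.0.16 (R 4.3.3) with TMM scaling, 1 coefficient per cell type and robust estimation was fitted to all 6 libraries, leaving 3 residual degrees of freedom. P-values were Benjamini-Hochberg adjusted over all 18206 genes, with a threshold of 0.05. Standard errors and 95% intervals were derived from the F statistic. Tests and intervals of the 5 genes used 7.03 degrees of freedom, because the estimate of spread also draws on the other genes. The steps were tested on simulated data in which fewer genes differed, and by less than the 5 genes differ from astrocytes here. That test does not cover differences of such size. Named besides the 5 were the nearest genes by pattern, at most 2, by identifier. Alternatives were DESeq2 1.42.0, voom in limma 3.58.1, scaling by RLE factors or by totals alone, testing without the low-count filter, fits of 4 libraries, a replicate block and omission of each library.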

Additional observations from a re-analysis of the deposited data

How the results depend on the processing

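Against astrocytes, the 5 genes kept direction and call under every alternative run. Between neurons and OPCs, Map2 passed the threshold with no low-count filter (log2 fold change 1.65, adjusted p = 0.0272), with the replicate block (1.74, adjusted p = 0.0329) and by DESeq2 (1.68, adjusted p = 0.0051). The sign of the Gap43 difference, which was -0.0046 and never called, turned with RLE scaling (0.030), total counts only (0.052), the replicate block (0.061), DESeq2 (0.030) and limma-voom (0.065). With 1 library left out it ran from -0.33 to 0.41. Mapt, Snap25 and Syt1 lost the call between neurons and OPCs without either OPC library, while over all omissions their log2 fold changes ran from 1.99 to 2.82, 5.07 to 6.44 and 2.56 to 4.15. Genes called over the whole table then ran from 116 to 2759 between neurons and OPCs, from 3306 to 5996 for neurons against astrocytes and from 2182 to 5831 for OPCs against astrocytes. DESeq2 called 4031 genes between neurons and OPCs, where edgeR called 2260. The cause was not tested. Where a cell type keeps 1 library, that library is taken to vary as the remaining pairs do.

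The replicate block changed no other call of the 5 genes. No label says what a number marks, and same-numbered libraries deviated with correlations of 0.147 (astrocytes and neurons), 0.292 (astrocytes and OPCs) and 0.162 (neurons and OPCs) across genes. With total counts only, the all-gene median of the log2 fold change shifted from -0.06 to 0.40 for neurons against astrocytes and from -0.04 to 0.39 for OPCs against astrocytes, small beside the differences of the 5 genes. Depth limits the astrocyte levels of Mapt, Gap43, Snap25 and Syt1, which rest on 0 to 34 counts a library.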
